A study of Mus musculus with 4 samples.

Results

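The genes described here are 8 mouse genes whose products serve the secretion of aqueous humor, the clear fluid of the front of the eye, or the ion transport of neighbouring ocular layers. They are the carbonic anhydrase genes Car2, Car4, Car12 and Car14, the transporter genes Slc4a4, Slc4a11 and Slc12a2, and the sodium pump subunit gene Atp1b1. Every probe set whose platform annotation gives exactly 1 of these symbols was taken, which gave 22 of the 45101 probe sets on the array. The study hybridised total RNA to 4 one-colour Affymetrix arrays. The myocilin transgenic group, whose animals expressed this secreted glycoprotein in their aqueous humor, had 2 arrays, and the control group had 2. Since the labels give control 2 as a repeat array of control 1, the controls count as 1 sample. Whether separate animals stand behind the transgenic arrays is not stated, so the p-values below reflect array-to-array spread that may be no more than technical. Strain, age, sex, the promoter of the transgene and the number of animals behind each RNA are not given in the sources used here, and the gene of the transgene was not analysed here.

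Aqueous humor is made by the ciliary epithelium, a double layer in which a pigmented cell sheet faces the stroma and a nonpigmented sheet faces the fluid. Cotransport and exchange load salt into the pigmented cells, gap junctions pass it across, and the sodium pump and chloride channels release it on the other side, with water following. Carbonic anhydrases interconvert carbon dioxide and bicarbonate and so feed the bicarbonate-dependent part of this transport, and drugs that inhibit them lower eye pressure. Several of the same proteins also work in the corneal endothelium, the retinal pigment epithelium and Mueller glia.

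All 4 arrays are labelled retina. Their trimmed mean signals were 150 on each, with medians between 47.1 and 50.3. Rod photoreceptor markers were dim, with 0 of 10 above a mean signal of 150, whereas all 5 corneal epithelium markers and all 6 pigmented cell markers exceeded it. Markers of the corneal endothelium, a layer that uses Slc4a11, exceeded 150 for 5 of 5. None of the means of the 3 ciliary epithelium markers did, with Aqp4 at 159 and 146 on the transgenic arrays and at 145 and 136 on the control arrays. RNA of layers other than the neural retina was thus present, and in such a mixture fewer cells of a type and less RNA per cell cannot be told apart.

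No secretion gene probe set passed the test between the groups. Of the 22, 18 passed a filter at the 40th percentile of mean log2 signal, equal to a signal of about 30.0, and were tested. In limma with Benjamini-Hochberg adjustment over all 27022 probe sets tested, 0 of the 18 passed an adjusted p of 0.05, against 0.0777% of all probe sets (0.0555% higher and 0.0222% lower). At an unadjusted p under 0.05 there were 4 higher and 2 lower, against 7.06% of all probe sets (4.14% higher and 2.92% lower). Differences are given below as log2(signal + 16), transgenic minus control, with their standard error (SE), and this scale understates differences of dim probe sets. Both transgenic arrays lay above both control arrays for 7 of the 18 and below both for 3, while the groups overlapped for 8. Over all probe sets tested, the groups did not overlap for 44.7%, with 21.1% above and 23.6% below.

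**Figure D1:**
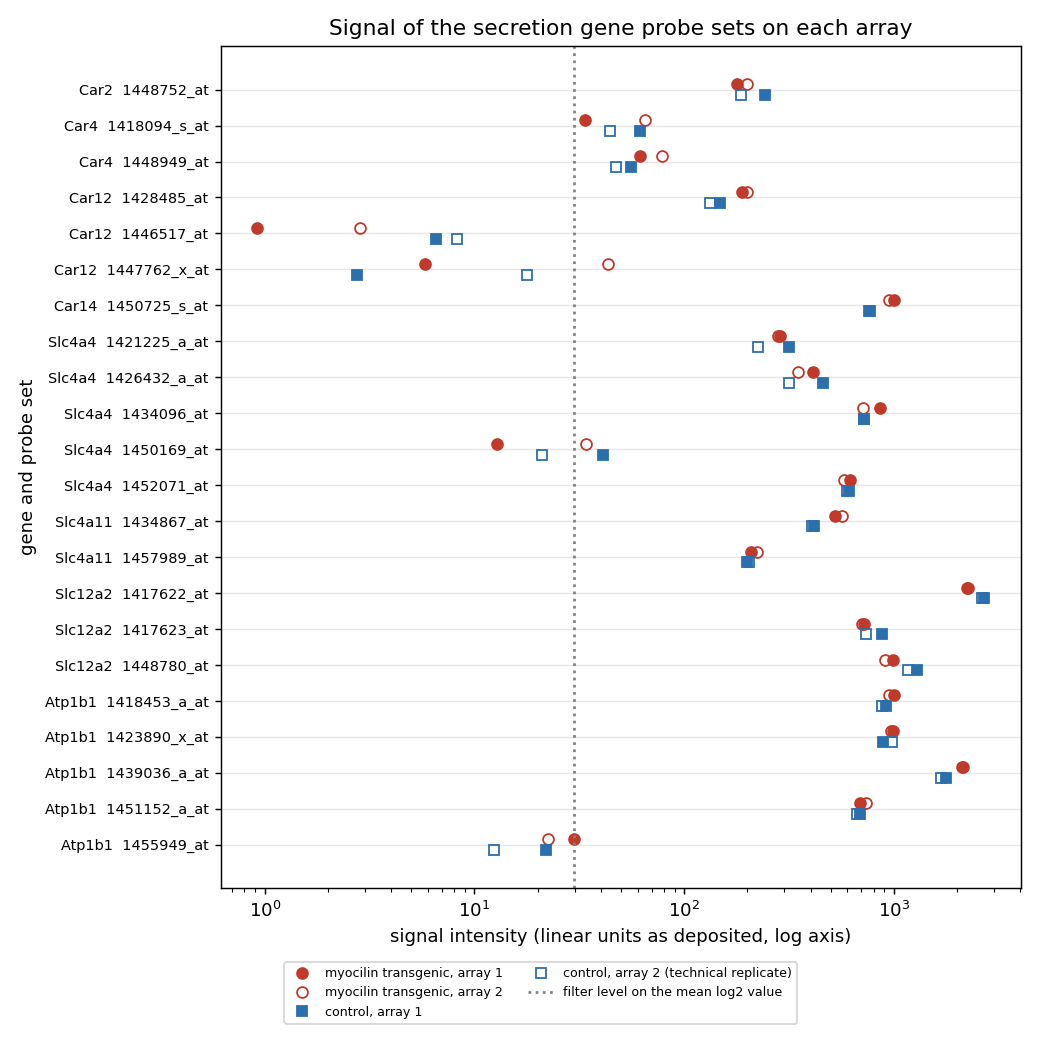
Signal of the 22 secretion gene probe sets on each array, on a log axis, with circles for the transgenic arrays, squares for the control arrays and a dotted line at the filter level of about 30.0. The Slc12a2 circles lie left of the squares on all 3 of its probe sets, and the circles of Car14 lie right of them, while 4 probe sets of Car12, Slc4a4 and Atp1b1 did not reach the filter.

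The membrane-bound carbonic anhydrases Car14 and, on its tested probe set, Car12 gave higher signals on both transgenic arrays, though neither passed. Car14, which encodes a transmembrane enzyme with its active site outside the cell, is known from the retinal pigment epithelium and Mueller glia of the mouse. Its probe set 1450725_s_at had signals of 998 and 945 on the transgenic arrays, against 764 and 767 on the control arrays. The groups did not overlap, and the control arrays were almost equal. Car14 averaged 972 ± 37.1 in transgenic samples (SD, n = 2) and 766 in the control sample, a fold of 1.27. The log2 difference was 0.34 ± 0.12 (SE), with an interval from 0.08 to 0.59 and a limma adjusted p of 0.539.

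Car12 encodes another transmembrane carbonic anhydrase, whose human counterpart is made in the ciliary epithelium. Its probe set 1428485_at had signals of 189 and 199 on the transgenic arrays, against 148 and 133 on the control arrays. The transgenic arrays again lay above both controls. The log2 difference was 0.42 ± 0.18 (SE), with an interval from 0.02 to 0.82 and a limma adjusted p of 0.671. The other probe sets of Car12 were under the filter and were not tested. Probe set 1446517_at of Car12 stood at 0.923 and 2.85 on the transgenic arrays, against 6.56 and 8.29 on the control arrays. Probe set 1447762_x_at of Car12 stood at 5.83 and 43.1 on the transgenic arrays, against 2.76 and 17.8 on the control arrays, a scatter within each group wider than the gap between them. Signals this low carry little information about Car12, with the transgenic arrays lower on 1446517_at and the groups overlapping on 1447762_x_at.

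Car14, Car12 on 1428485_at and, as described below, Atp1b1 on 1439036_a_at were higher on both transgenic arrays, and their promoters from RefSeq are shown for reference. Car4 on 1448949_at was also higher on both and has a promoter entry, which is not shown. Of the 8 genes, 5 have an entry in the promoter table, and Car2, Slc4a11 and Slc12a2 have none. Each run covers 250 bases before to 50 after the gene start on build GRCm38.p6, read 5′ to 3′ on the gene's strand. Capitals mark matches, on either strand, to TATAAA (the core of the TATA box), CCAAT (the box bound by nuclear factor Y), GGGCGG (the core of the GC box) and ACGTG (the core of the hypoxia response element), and no match overlaps another.
Car14, chr3:95904636-95904935, minus strand: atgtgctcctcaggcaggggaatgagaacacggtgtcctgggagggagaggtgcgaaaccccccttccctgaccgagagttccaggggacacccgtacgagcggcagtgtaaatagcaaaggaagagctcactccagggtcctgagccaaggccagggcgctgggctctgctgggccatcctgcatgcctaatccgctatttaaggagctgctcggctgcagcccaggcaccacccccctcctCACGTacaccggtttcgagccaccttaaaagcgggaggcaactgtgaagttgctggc
Car12, chr9:66713436-66713735, plus strand: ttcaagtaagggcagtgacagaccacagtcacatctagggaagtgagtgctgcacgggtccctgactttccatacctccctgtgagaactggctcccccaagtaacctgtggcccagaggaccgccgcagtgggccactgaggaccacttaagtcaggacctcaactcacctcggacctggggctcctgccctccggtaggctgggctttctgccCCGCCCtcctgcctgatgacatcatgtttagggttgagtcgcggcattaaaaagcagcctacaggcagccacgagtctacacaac
Atp1b1, chr1:164458306-164458605, minus strand: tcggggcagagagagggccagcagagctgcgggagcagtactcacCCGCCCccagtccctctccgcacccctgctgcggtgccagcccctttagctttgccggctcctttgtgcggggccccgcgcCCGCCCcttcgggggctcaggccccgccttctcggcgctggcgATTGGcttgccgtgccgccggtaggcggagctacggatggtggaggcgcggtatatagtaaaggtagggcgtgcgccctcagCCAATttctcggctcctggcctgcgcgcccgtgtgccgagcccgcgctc
The Car14 run holds 1 ACGTG match, beginning 7 bases before the start, and the Car12 run holds 1 GGGCGG match. The Atp1b1 run holds 2 matches to CCAAT and 2 to GGGCGG. No TATAAA lies in the 3 runs. Among all 32851 promoters in the table, 13.6% hold TATAAA, 37.4% CCAAT, 35.7% GGGCGG and 19.6% ACGTG. The GC content was 61.0% for Car14, 58.3% for Car12 and 71.0% for Atp1b1, against a median of 52.7% over all promoters. A match describes the letters only.

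The groups of arrays overlapped for Car2 and for 1 of the 2 probe sets of Car4. Car2 encodes the abundant cytosolic carbonic anhydrase, found in the ciliary epithelium, Mueller glia and red blood cells. Its only probe set, 1448752_at, had signals of 178 and 199 on the transgenic arrays, against 242 and 187 on the control arrays. The second control array lay between the transgenic arrays, and the 2 control arrays, which are technical replicates, differed by 0.34 on the log2 scale. The log2 difference for Car2 was −0.17 ± 0.18 (SE; limma adjusted p = 0.927), and 0.01 without control replicate 1, so its direction rested on that array.

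Car4 encodes an enzyme anchored to the outer cell membrane by a lipid, known in the eye from the capillary endothelium of the choroid. Probe set 1448949_at of Car4 had signals of 61.8 and 78.6 on the transgenic arrays, against 55.6 and 47.3 on the control arrays. On this probe set the groups did not overlap, with a log2 difference of 0.35 ± 0.29 (SE; limma adjusted p = 0.885). Probe set 1418094_s_at of Car4 had signals of 33.5 and 65.2 on the transgenic arrays, against 61.7 and 44.1 on the control arrays. Here the transgenic arrays spanned the controls and differed from each other by 0.71 on the log2 scale. The log2 difference on 1418094_s_at was −0.11 ± 0.36 (SE; limma adjusted p = 0.987), and 0.08 without control replicate 1. Markers of vascular endothelium were dim on the same arrays, with 0 of 6 above 150. Their summed signal was 396 and 412 on the transgenic arrays, against 483 and 400.3 on the control arrays, and Tie1 was the dimmest at 18.9 and 12.5 against 34.6 and 14.0.

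Among the bicarbonate and related transporters, Slc4a11 was higher and Slc4a4 showed no common direction. Slc4a11 encodes a membrane transporter of the corneal endothelium whose human gene is mutated in corneal endothelial dystrophy. Probe set 1434867_at of Slc4a11 had signals of 524 and 564 on the transgenic arrays, against 418 and 406 on the control arrays. The gap between the groups was wider than the difference within either. The log2 difference was 0.39 ± 0.13 (SE), with an interval from 0.10 to 0.68 and a limma adjusted p of 0.539. Probe set 1457989_at of Slc4a11 had signals of 208 and 221 on the transgenic arrays, against 199 and 204 on the control arrays. The order of the groups was the same, but the difference was 0.09 ± 0.17 (SE; limma adjusted p = 0.971), and the mean over both probe sets was 0.24. Whether the 2 probe sets of Slc4a11 differ was not tested. The corneal endothelium markers had a median log2 difference of 0.02, with 0 of 5 past the threshold. Their summed signal was 5752 and 5701 on the transgenic arrays, against 5370.4 and 5379 on the control arrays, and Col8a1, a collagen of the membrane under that endothelium, stood at 0.27 ± 0.10 (SE; limma adjusted p = 0.609).

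Slc4a4 encodes the sodium bicarbonate cotransporter that carries charge along with bicarbonate, and RefSeq lists more than 1 start site for it. Its 5 probe sets included 4 that were tested. The groups overlapped on all 4, with log2 differences between −0.02 and 0.12. Probe set 1434096_at of Slc4a4 had signals of 860 and 716 on the transgenic arrays, against 721 and 717 on the control arrays. One transgenic array lay above the other 3 arrays, which were nearly equal. Probe set 1452071_at of Slc4a4 had signals of 615 and 581 on the transgenic arrays, against 613 and 596 on the control arrays. On this probe set of Slc4a4 the difference was −0.02 ± 0.13 (SE), with an interval from −0.29 to 0.26. On 1426432_a_at Slc4a4 had signals of 413 and 350.1 on the transgenic arrays, against 457 and 317 on the control arrays. On 1421225_a_at Slc4a4 had signals of 285 and 280.1 on the transgenic arrays, against 317 and 226 on the control arrays. On both, the control arrays lay on either side of the transgenic arrays and differed from each other by 0.51 and 0.46 on the log2 scale, although they are technical replicates. Without control replicate 1 the differences of Slc4a4 were 0.25 on 1426432_a_at and 0.00 on 1452071_at. Without control replicate 2 the difference was −0.16 on 1421225_a_at. With all arrays, the difference on each of these probe sets was smaller than its SE, so none had a settled direction. Those on 1426432_a_at and 1452071_at also turned sign after median centring with all arrays kept. The fifth, 1450169_at, lay under the filter, with signals of 12.7 and 34.1 on the transgenic arrays, against 40.8 and 20.9 on the control arrays.

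**Figure D2:**
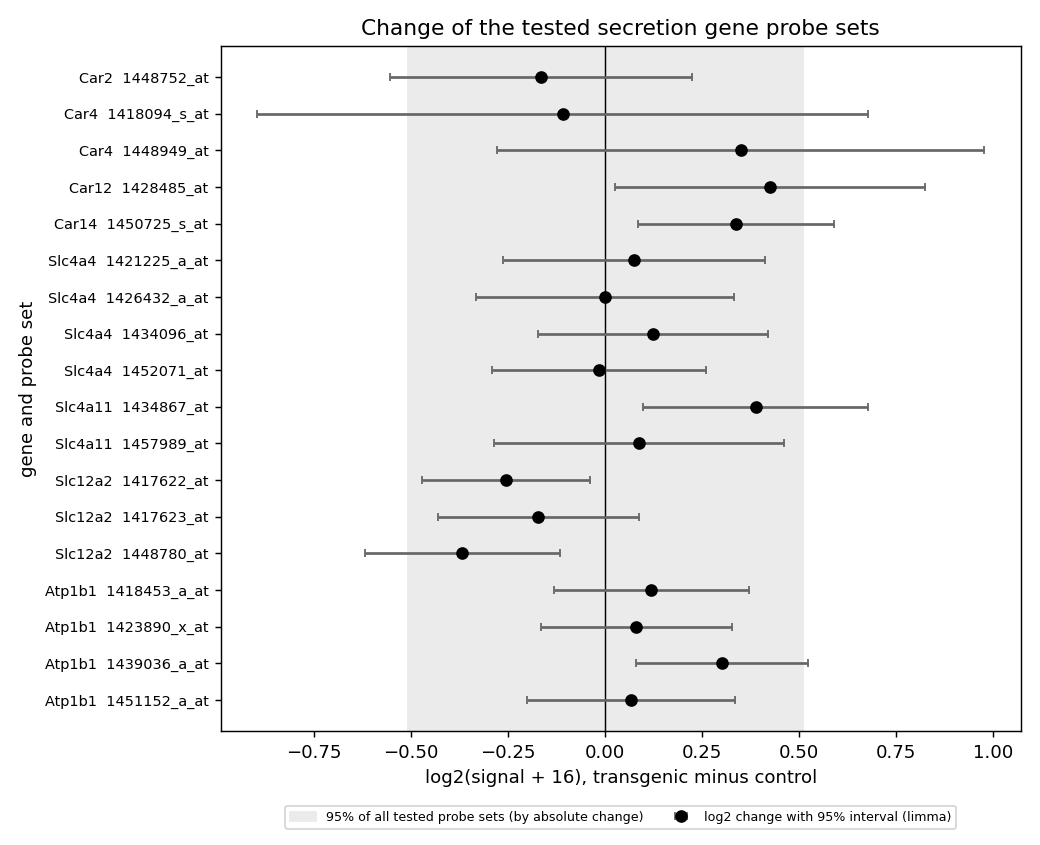
Log2 difference, transgenic minus control, of the 18 tested secretion gene probe sets (points) with 95% intervals from limma (bars); the grey band spans the central 95% of all probe sets tested by absolute difference, up to 0.51 on either side. All 18 points lie inside the band, and the intervals of 6 exclude 0 before adjustment.

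Slc12a2 was lower on both transgenic arrays on each of its 3 probe sets. It encodes the sodium-potassium-chloride cotransporter of secretory epithelia, which loads chloride into pigmented ciliary cells and is the target of loop diuretics such as bumetanide. Probe set 1448780_at of Slc12a2 had signals of 987 and 909 on the transgenic arrays, against 1289 and 1168 on the control arrays. Slc12a2 averaged 948 ± 54.7 in transgenic samples (SD, n = 2) and 1229 in the control sample on this probe set, a fold of 0.771. The log2 difference was −0.37 ± 0.11 (SE), with an interval from −0.62 to −0.12 and a limma adjusted p of 0.473, the lowest among the 18. Probe set 1417622_at of Slc12a2 had signals of 2218 and 2243 on the transgenic arrays, against 2691 and 2641 on the control arrays. Arrays within a group were close to each other, and the log2 difference was −0.26 ± 0.10 (SE; limma adjusted p = 0.625). Probe set 1417623_at of Slc12a2 had signals of 716 and 705 on the transgenic arrays, against 875 and 738 on the control arrays. Its second control array stood close to the transgenic arrays, and the difference was −0.17 ± 0.12 (SE; limma adjusted p = 0.845). The 3 probe sets were designed against 1 transcript record, so they repeat the measurement of one RNA and are not replicates of the comparison. On the same arrays, 2 of the 3 ciliary epithelium markers were also lower without passing. Aqp4 was higher on both transgenic arrays, at 0.11 ± 0.20 (SE). Optc, which encodes opticin of the nonpigmented layer, had signals of 129 and 75.2 on the transgenic arrays, against 136 and 164 on the control arrays. Best2, a bestrophin gene of that layer, had 131 and 110.3 on the transgenic arrays, against 169 and 155 on the control arrays. The summed signal of the 3 ciliary markers was 419 and 332 on the transgenic arrays, against 451 and 455 on the control arrays. Of the 6 pigmented cell markers, 5 were higher on both transgenic arrays, against 21.1% of all probe sets tested. The part of either cell type in the Slc12a2 difference was not tested.

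Atp1b1 was higher on one probe set and closer to 0 on the others that were tested. It encodes a beta subunit of the sodium-potassium pump, which brings the catalytic subunit to the membrane. Probe set 1439036_a_at of Atp1b1 had signals of 2124 and 2109.6 on the transgenic arrays, against 1762 and 1670.0 on the control arrays. The groups were well apart and each pair was close. The log2 difference was 0.30 ± 0.10 (SE), with an interval from 0.08 to 0.52 and a limma adjusted p of 0.531. Probe set 1418453_a_at of Atp1b1 had signals of 1003 and 946 on the transgenic arrays, against 915 and 877 on the control arrays, a difference of 0.12 ± 0.11 (SE; limma adjusted p = 0.913). On 1423890_x_at Atp1b1 had signals of 993 and 972 on the transgenic arrays, against 884 and 974 on the control arrays. On 1451152_a_at Atp1b1 had signals of 685 and 735 on the transgenic arrays, against 691 and 664 on the control arrays. The groups overlapped on these last 2, which stood at 0.08 and 0.07. The mean over the 4 tested probe sets of Atp1b1 was 0.14. The dim 1455949_at of Atp1b1, under the filter, had signals of 29.8 and 22.4 on the transgenic arrays, against 22.0 and 12.4 on the control arrays.

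Of the 18 tested probe sets, 9 differed between the groups by more than the arrays of either group differed from each other, against 32.2% of all probe sets tested. They belong to Car4, Car12, Car14, Slc4a11, Slc12a2 and Atp1b1. With the probe set of highest mean signal standing for each gene, the median over the 8 genes was 0.32. It was 0.13 with the mean over the tested probe sets of each gene, against −0.02 over all probe sets tested. The choice of probe set thus moved the median by more than 1.5 times, mainly through Slc4a11, Car4 and Atp1b1, whose other probe sets stood closer to 0 or below it.

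**Figure D3:**
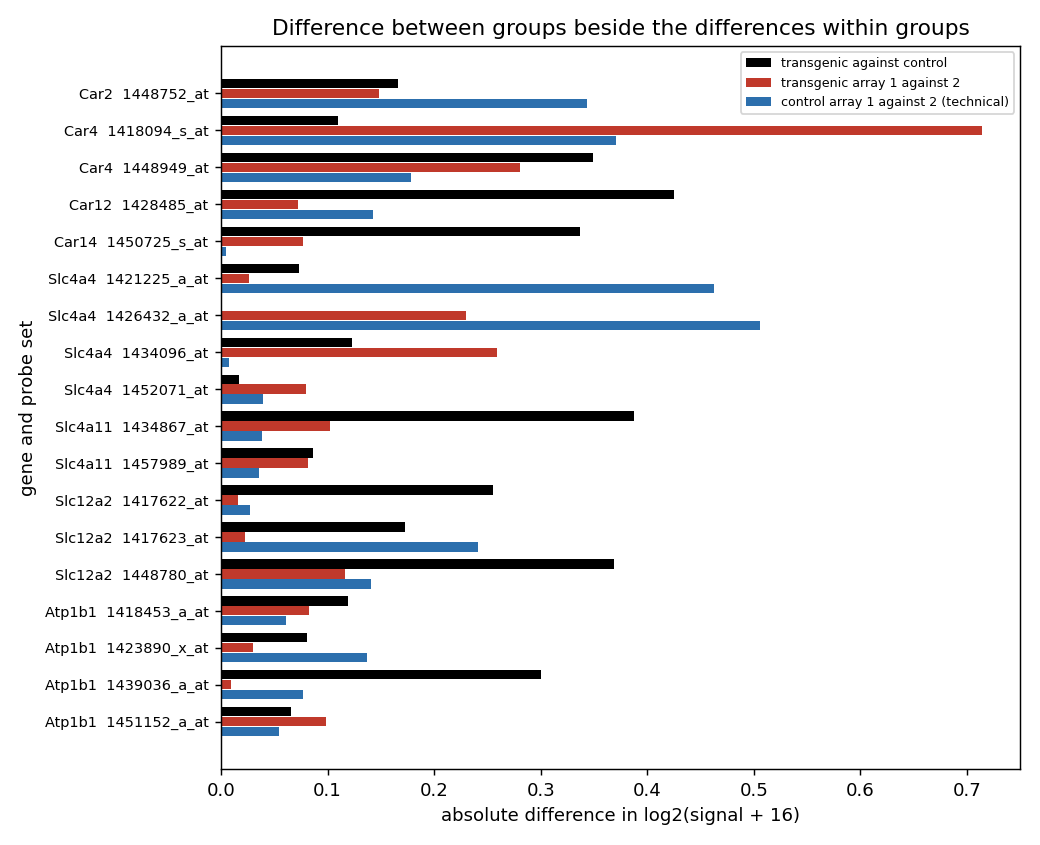
Absolute difference in log2(signal + 16) between transgenic and control (black), between the 2 transgenic arrays (red) and between the 2 control arrays (blue) for the 18 tested probe sets. The black bar is the longest of the 3 for 9 probe sets, among them Car14 at 0.34, and the blue bar is the longest for Car2, for 2 probe sets of Slc4a4 and for 1 each of Slc12a2 and Atp1b1.

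Car14, Car12 on 1428485_at and Atp1b1 on 1439036_a_at were higher on the same arrays as markers of the retinal pigment epithelium. All 6 of these markers were higher on both transgenic arrays, against 21.1% of all probe sets tested, with a summed signal of 15131 and 16076.5 against 10608 and 10541 on the control arrays. Most of this sum was Ttr, at 10019 and 11205 on the transgenic arrays, against 7533 and 7720 on the control arrays. Rpe65, the visual cycle isomerase, and Rgr, an opsin of that layer, passed the test, at 1.24 ± 0.13 (SE; limma adjusted p = 0.00581) and 1.06 ± 0.12 (adjusted p = 0.00699), against 0.0555% of all probe sets called higher. Without the filter or without the intensity trend, 0 probe sets of the whole table passed, these markers included. The dimmest of the 6 was Lrat, at 235 and 219.8 against 154 and 127, so none was near 0. The 6 markers of pigmented cells had a summed signal of 33659 and 36723 on the transgenic arrays, against 30335 and 30475 on the control arrays, with 0 past the threshold. Mueller glia markers had a summed signal of 13350.0 and 13698 on the transgenic arrays, against 12007 and 12469 on the control arrays, with 0 of 7 past the threshold and Kcnj10 the dimmest at 44.6 and 38.8 against 56.5 and 50.03. Most of the Mueller glia sum was Glul and Vim. On the probe set of highest mean signal 4 were above and 3 below 0 (Slc1a3, Kcnj10 and Sox9), with a median log2 difference of 0.08. The median was −0.07 with the mean over each gene's tested probe sets. Rlbp1, at 0.49, is in this list and in that of the retinal pigment epithelium. Lens markers had a median log2 difference of 1.03, with 5 of 8 tested and 2 higher past the threshold, the crystallin genes Cryaa and Cryba1. Their summed signal was 493 and 504 on the transgenic arrays, against 142 and 199.8 on the control arrays, with 0 of 8 above 150. Mean control signals of Cryaa (13.6), Cryba1 (25.9), Crybb2 (20.4) and Bfsp2 (22.6) were under the filter level of about 30.0. These genes entered the test through their transgenic signals, so the lens median and calls were partly set by the filter. Fibroblast markers had a summed signal of 24126 and 24015.8 on the transgenic arrays, against 20238 and 19055 on the control arrays, with a median of 0.28 and 0 of 5 past the threshold. These sums were taken on the deposited signals and are set mostly by the brightest genes of each list. After quantile normalization the bright Gja1 moved from 0.09 to −0.09 and Car3 from 0.33 to 0.23. The sums were not taken after that step. The part of the cell types named here in the signals of Car12, Car14 and Atp1b1 was not tested.

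**Figure D4:**
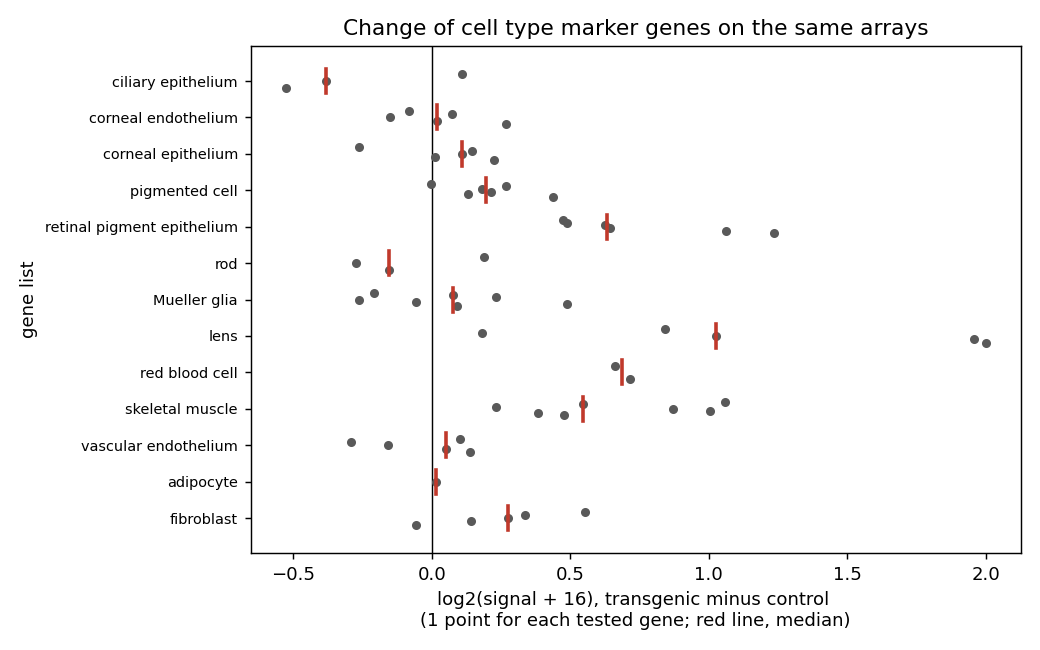
Log2 difference, transgenic minus control, of the tested genes in each list of cell type markers (points), with red lines at the medians. All 6 retinal pigment epithelium points lie right of 0 with a median of 0.63, and the corneal endothelium points scatter around a median of 0.02.

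Other genes of ion and fluid transport gave a background for these 8. Lists of 106 genes in 9 groups held 88 genes with a probe set of their own and 65 that were tested. Of the 65, 0 passed in limma in either direction, with 3 higher and 2 lower at an unadjusted p under 0.05, and their median log2 difference was −0.03. Over all probe sets tested, 0.0777% passed and 7.06% had an unadjusted p under 0.05. Those 5 genes came from 4 of the lists.

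Of the other carbonic anhydrases, 9 of 12 were tested, with a median of 0.12, or 0.0067 with the mean over each gene's tested probe sets, and 0 past the threshold. Car3, an isoform abundant in skeletal muscle and fat, had signals of 4750 and 5047 on the transgenic arrays, against 4007 and 3776 on the control arrays. The groups did not overlap, and the log2 difference of Car3 was 0.33 ± 0.10 (SE; limma adjusted p = 0.421). Skeletal muscle markers were also higher, as both transgenic arrays were above the controls for 7 of 7, against 21.1% of all probe sets tested, with 3 past the threshold (Myl1, Mylpf and Mb), against 0.0555% called higher. These calls too were absent without the filter or the intensity trend. Their summed signal was 18272 and 18105.5 on the transgenic arrays, against 10501 and 10827 on the control arrays, and Ckm, the creatine kinase gene of muscle, stood at 943 and 1075 against 631 and 819. Adipocyte markers were dim, with a summed signal of 69.7 and 63.8 over 4 genes on the transgenic arrays, against 72.8 and 56.0 on the control arrays. Most of this sum was Retn, at 51.0 and 44.1 against 44.4 and 49.4, and the others were near the floor. The part of muscle in the Car3 signal was not tested. Car6, the secreted enzyme of saliva and tears, stood at −0.19 ± 0.12 (SE), and Car8, a relative without enzyme activity, at 0.13 ± 0.19. The ends of the list were Car7 at 0.40 ± 0.36 and Car11 at −0.46 ± 0.35, both dim.

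Among 15 other bicarbonate and anion transporters, 11 were tested, with a median of 0.16 and 0 past the threshold. Slc4a5, which encodes a second electrogenic sodium bicarbonate cotransporter, had signals of 715 and 637 on the transgenic arrays, against 592 and 489 on the control arrays. Slc26a7, an anion exchanger and channel gene, had signals of 1059 and 981 on the transgenic arrays, against 819.8 and 803 on the control arrays. Both were higher on both transgenic arrays, at 0.32 ± 0.13 for Slc4a5 (SE; limma adjusted p = 0.650) and 0.32 ± 0.12 for Slc26a7 (adjusted p = 0.573). Slc4a2, a chloride-bicarbonate exchanger gene, stood at −0.13 ± 0.16 and Slc26a11 at −0.35 ± 0.35 (SE). Slc4a1, the anion exchanger of red blood cells, stood at 0.66 ± 0.36 (limma adjusted p = 0.782), with signals of 39.4 and 47.6 against 31.2 and 13.8, close to the filter level. Red blood cell markers, a list that holds Slc4a1, had a summed signal of 197 and 275 on the transgenic arrays, against 121 and 139 on the control arrays. Of the 4 with a probe set 2 were tested and 0 passed, Hba-a1 stood at 19.6 and 18.3 against 2.82 and 4.52, and Epb42 at 0.742 and 0.929 against 7.43 and 3.05. Their part in the signals of Slc4a1 and Car2 was not tested.

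The cation-chloride cotransporters related to Slc12a2 numbered 4 tested of 8, with a median of −0.18 and all below 0 on the probe set of highest mean signal. Over all 27022 probe sets tested, 14356 were below 0. Slc12a5, the potassium-chloride cotransporter of neurons, had signals of 104 and 97.7 on the transgenic arrays, against 185 and 184 on the control arrays. The groups were clearly apart, and the log2 difference was −0.78 ± 0.21 (SE; limma adjusted p = 0.384). Slc12a4 stood at −0.23 ± 0.22 and Slc12a7 at −0.10 ± 0.21 (SE), with a mean of 0.06 over the tested probe sets of Slc12a7. The kinases and partners that regulate these cotransporters had 10 of 10 tested, with 0 past the threshold. On the probe set of highest mean signal 9 of the 10 were below 0, with a median of −0.14, whereas with the mean over each gene's tested probe sets 6 were below 0, with a median of −0.040. Wnk1, the kinase at the head of the pathway, stood at −0.16 ± 0.11, and Cab39, a partner of the downstream kinases, at −0.21 ± 0.12 (SE). Wnk4 stood at −0.47 ± 0.23, with signals of 88.6 and 82.2 on the transgenic arrays, against 129 and 120.2 on the control arrays (limma adjusted p = 0.747). Wnk3, another kinase of that family, stood at 0.13 ± 0.32, and Sgk1, a kinase induced by steroid hormones, stood at −0.0086 ± 0.10 (SE) and at 0.021 after median centring.

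The other subunits of the sodium pump and its FXYD regulators had 8 of 14 tested, with 4 above and 4 below 0, a median of 0.07 and 0 past the threshold. Atp1b3, another beta subunit gene, had signals of 2949 and 2971 on the transgenic arrays, against 3301 and 3013 on the control arrays, a difference of −0.09 ± 0.10 (SE; limma adjusted p = 0.924). Atp1b2, the beta subunit of glia, stood at 0.38 ± 0.23, Fxyd1 at 0.14 ± 0.13, Fxyd3 at −0.03 ± 0.10 and Fxyd4 at −0.27 ± 0.26 (SE). The interval of Atp1b3 ran from −0.30 to 0.12 and that of Atp1b1 on 1439036_a_at from 0.08 to 0.52, and the difference between these genes was not tested.

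Chloride channel genes had 9 of 16 tested, with a median of −0.02, or 0.04 with the mean over each gene's tested probe sets. Clns1a, a regulator of volume-activated current, stood at 0.04 ± 0.12, Clcn3 at −0.11 ± 0.12, Lrrc8a, a subunit of the volume-regulated anion channel, at 0.05 ± 0.16 and Clcn5 at 0.39 ± 0.21 (SE). Clcn5 had signals of 246 and 366 on the transgenic arrays, against 237 and 216 on the control arrays. The transgenic arrays differed from each other by more than the groups did, and the mean over its tested probe sets was 0.18. Best2 had the lowest value of this list at −0.38 ± 0.21 (SE; limma adjusted p = 0.787). Of the gap junction genes, 4 of 6 were tested. Gja1, the connexin that joins pigmented to nonpigmented ciliary cells, stood at 0.09 ± 0.09 but at −0.09 after quantile normalization, and Gjb6 at 0.05 ± 0.15. Gjb2, a connexin gene of epithelia, had signals of 553 and 614 on the transgenic arrays, against 758 and 797 on the control arrays, a difference of −0.41 ± 0.13 (SE; limma adjusted p = 0.479). Sodium-proton exchangers and their scaffolds had 5 of 12 tested, between −0.11 for Slc9a7 and 0.18 for Slc9a8. Slc9a3r1, the scaffold NHERF1, stood at −0.07 ± 0.13 and Slc9a3r2 at −0.10 ± 0.22 (SE), and the mean over the tested probe sets of Slc9a8 was −0.40. Receptors and signals that act on secretion had 5 of 13 tested, with Vipr2 at 0.26 ± 0.28, Npr2 at −0.11 ± 0.20 and Nos3 at −0.14 ± 0.29 (SE). Their signals were low, and 0 of the 7 with a probe set exceeded 150.

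**Figure D5:**
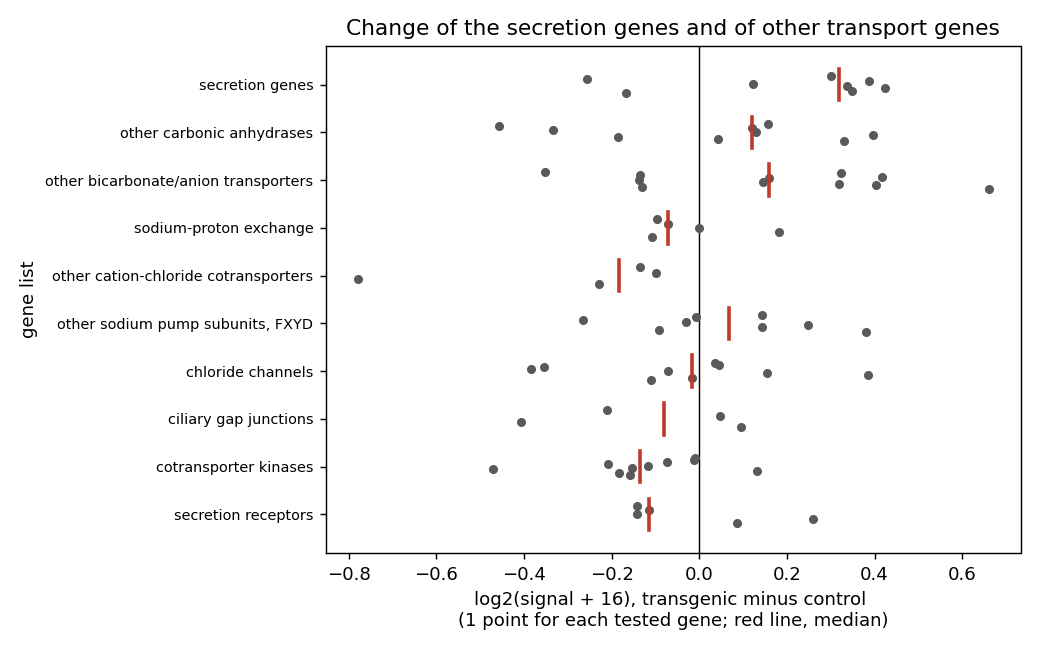
Log2 difference, transgenic minus control, of the tested genes among the 8 secretion genes (top row, the probe set of highest mean signal for each) and in 9 lists of other transport genes, with red lines at the medians. The secretion genes spread from −0.26 for Slc12a2 to 0.42 for Car12, and Slc12a5 at −0.78 is the lowest point of the plot.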

How the data were processed

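The deposited table held 1 linear signal intensity per probe set and array, made by the authors with software and settings not given in the sources used here. No genome build was named, so positions are given only for RefSeq promoters. No rescaling was applied, since the means after trimming 2% at each end differed by under 5% between arrays. Each of these means was 150 as deposited, so the check could not fail. It does not show that the arrays match at other signal levels. Gene names came from the platform annotation, where 34958 probe sets had 1 symbol, 932 several and 9211 none. After leaving out 64 array controls, limma 3.58.1 (R 4.3.3) was run on log2(signal + 16), with moderation along the intensity trend, for 2 transgenic samples and the mean of the control arrays. The fit had 1 residual and 10.3 prior degrees of freedom and took the single control sample to vary as the transgenic ones do. Tests were two-sided, intervals are at 95%, and p-values were adjusted over all probe sets tested. With so few arrays, every value is imprecise. For the transport lists, the probe set with the highest mean signal stands for a gene. From each list the 3 genes with the highest mean signal, the tested gene with the largest difference in each direction and any gene past the threshold are named. The members and lists were chosen with earlier results of these data known.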

Additional observations from a re-analysis of the deposited data

How the results depend on the processing

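For the secretion gene probe sets, 0 passed in all alternative fits except 1, and the signs of Car14, Slc4a11, Slc12a2 and Atp1b1 held in all. With the 4 arrays as separate samples and the replicate number as a block, 5 passed, 3 higher and 2 lower, at adjusted p of 0.00552 for Car14, 0.00984 for Slc4a11, 0.00515 and 0.00111 for Slc12a2 and 0.00191 for Atp1b1, as did 5 transport list genes and 1740 probe sets in all. In the labels, same-numbered arrays share only a number, and whether they share a batch was not tested. The deviations correlated at 0.0955 over probe sets. Since the control arrays are technical replicates, this fit takes technical arrays for samples. Over all probe sets the count was 39 after quantile normalization, 177 after median centring, 135 with 4 separate arrays and no block, 0 without the filter or the intensity trend (2181 and 1059 at an unadjusted p under 0.05), and between 14 and 33 without a control array. Median centring called 1 transport gene, Car3 (adjusted p = 0.0439). Leaving out a transgenic array left no test. Signs turned after quantile normalization for Slc4a4 on 1426432_a_at (0.013), Clns1a (−0.046) and Gja1 (−0.093), and after median centring for Slc4a4 on 1426432_a_at (0.028) and 1452071_at (0.013) and for Sgk1 (0.021). They also turned for some when 1 control array was left out, and the values over all fits without 1 array, transgenic or control, ran from −0.34 (without control replicate 2) to 0.0058 (without control replicate 1) for Car2 and from −0.47 to 0.25 for Car4 on 1418094_s_at. For Slc4a4 they ran from −0.16 to 0.30 on 1421225_a_at, from −0.25 to 0.25 on 1426432_a_at and from −0.057 to 0.023 on 1452071_at. They ran from −0.23 to 0.035 for Slc12a7, from −0.095 to 0.17 for Clns1a, from −0.11 to 0.20 for Lrrc8a, from −0.074 to 0.17 for Gjb6, from −0.088 to 0.071 for Sgk1 and from −0.16 to 0.42 for Wnk3. Signs turned only without 1 transgenic array for Slc4a4 on 1434096_at (−0.0064), Car12 on the dim 1447762_x_at (−0.21), Slc9a3r1 (0.069), Slc9a7 (0.039) and Fxyd3 (0.0099), and without either group's first array for Slc4a4 on the dim 1450169_at (0.13 and 0.040). The cause of these turns was not tested. With 1 control sample, the spread between control animals is not measured at any signal level.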
